A study of Homo sapiens with 8 samples.

Results

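The interferon receptor chains, STAT and IRF transcription factors and the feedback inhibitor SOCS1 were followed in an indisulam-resistant derivative of Panc10.05, a human line from pancreatic cancer, and in its parental cells. The set held 9 genes picked by symbol (IFNAR1, IFNAR2, IFNLR1, STAT2, IRF9, IRF1, IRF3, IRF7 and SOCS1) of the 60675 genes in the count tables. The rule itself used no measured values, but the genes and lists were chosen with earlier results of these data known. The 8 polyadenylated RNA libraries formed 4 groups of 2. Parental untreated cells received no drug, and parental indisulam cells were exposed to 2 µM for 18 h. Resistant untreated cells had been kept off the drug for 1 week (a drug holiday), and resistant indisulam cells stayed on 2 µM without a break. The resistant line was selected on rising doses, and it was 1 line made from 1 parental line. The drug effect in resistant cells was thus measured against a withdrawal, and in parental cells against cells never exposed. Indisulam is a molecular glue: it brings RBM39, a splicing factor, to the ubiquitin ligase receptor DCAF15, and RBM39 is degraded. The growth and treatment notes name A549, another cell line, while titles and cell line fields name Panc10.05, which was followed here. Libraries of 1 group are technical replicates in the study's own words, so the p-values concern the spread between these libraries.

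Type I interferons bind a receptor of IFNAR1 and IFNAR2, and type III interferons bind IFNLR1 together with IL10RB. The bound receptors activate the kinases JAK1 and TYK2, and a complex of STAT2, IRF9 and a further STAT protein then enters the nucleus and binds interferon-stimulated response elements (ISREs). IRF3 is present in resting cells and switches on interferon genes once phosphorylated, IRF7 amplifies that step, and IRF1 is induced through gamma-activated sites (GAS). SOCS1 and USP18 damp the pathway, SOCS1 at the kinases and USP18 at IFNAR2. Epithelial cells of many tissues carry both receptor types.

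The gene reads of a library numbered between 65266253 and 108002436. Levels are given in CPM, the reads of a gene per 1000000 library reads after TMM (trimmed mean of M values) scaling. All 6 epithelial markers reached at least 1 CPM in every group, while PTPRC and CD3E of leukocytes and CLEC4C, LILRA4 and IL3RA of plasmacytoid dendritic cells had 0 reads throughout. The other leukocyte markers, CD14, CD68 and LYZ, had few reads, and CD14 measured 0.0775 to 0.164 CPM in parental and 0.203 to 0.371 CPM in resistant libraries. TCF4, the remaining plasmacytoid marker, measured 0 to 0.0646 CPM in parental and 0.108 to 0.208 CPM in resistant libraries. The epithelial markers summed to 6324 to 6513 CPM in parental and 10800 to 12230 CPM in resistant libraries. The 6 fibroblast markers summed to 3.97 to 4.03 CPM in resistant indisulam cells, nearly all COL1A1, and to 1.35 to 1.89 CPM in the other groups, with DCN and LUM at 0. The part of these shifts in the results below was not tested. In bulk RNA, fewer cells expressing a gene and less RNA per cell cannot be told apart.

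The promoter stretches that hold a motif of this pathway are shown for each of the 9 genes in which one was found. A link between a match and the change of its gene was not tested. RefSeq promoters (GRCh38.p14) were found for 6 of the 9 genes, all but IFNAR2, IRF7 and IRF3, and the 250 bases upstream of each start were searched on both strands. The GAS pattern TTCNNNGAA, which reads the same on either strand, was found upstream of IRF9, IRF1 and IFNLR1. The ISRE pattern, GAAA and GAAA with NN between them (TTTC, NN and TTTC on the other strand), was found upstream of SOCS1. The match lay 63 to 55 bases upstream of the start in IRF9, 124 to 116 in IRF1, 238 to 230 in IFNLR1 and 113 to 104 in SOCS1, and no match overlapped another motif. Capitals mark it below.
IRF9, chr14:24161172-24161240, plus strand: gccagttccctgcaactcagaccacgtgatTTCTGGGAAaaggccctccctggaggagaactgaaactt
IRF1, chr5:132490859-132490927, minus strand: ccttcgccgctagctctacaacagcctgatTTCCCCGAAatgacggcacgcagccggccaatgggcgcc
IFNLR1, chr1:24187489-24187539, minus strand: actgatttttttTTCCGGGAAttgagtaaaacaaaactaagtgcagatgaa
SOCS1, chr16:11256278-11256347, minus strand: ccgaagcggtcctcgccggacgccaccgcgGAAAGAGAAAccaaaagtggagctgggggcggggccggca

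Among all 35116 promoters of the table, 6.57% held the GAS and 3.02% the ISRE pattern in the same window. Of 23 interferon-stimulated genes with a promoter, 16 (69.6%) held the ISRE and 7 (30.4%) the GAS pattern. A match is a description of letters, and nothing was read from the absence of one in STAT2 and IFNAR1.

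IFNAR1 (ENSG00000142166, chromosome 21, 33324387 to 33359864, plus strand), the first chain of the type I receptor, was the steadiest of the receptor genes. Parental libraries held 31.34 and 30.66 CPM untreated and 33.93 and 34.28 CPM with indisulam. Resistant libraries held 35.17 and 34.15 CPM untreated and 30.18 and 30.95 CPM with indisulam. All 8 libraries thus lay within a narrow band, and the drug moved the lines in opposite directions. Indisulam raised IFNAR1 in parental cells by 0.14 log2 units (SE 0.036, adjusted p = 0.0023, edgeR quasi-likelihood test with Benjamini-Hochberg adjustment, as for every adjusted p here) and lowered it in resistant cells (log2 change -0.18, SE 0.038, adjusted p = 0.0003). The parental change was not called when libraries were scaled by their totals alone (0.07) or with the filter on a mean CPM of at least 1 (0.08).

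IFNAR2 (ENSG00000159110, chromosome 21, 33205282 to 33265675, plus strand), the chain that USP18 binds, was lower in the resistant line both off and on the drug. The parental level was 4.751 and 4.763 CPM untreated and 5.922 and 4.713 CPM with the drug. The resistant level was 4.118 and 3.542 CPM untreated and 3.367 and 3.275 CPM with the drug. Every resistant library was below every parental one. The difference was -0.31 off the drug (SE 0.1, adjusted p = 0.012) and -0.68 on it (SE 0.103, adjusted p = 4.7e-06). Indisulam itself gave no call in either line (0.16, adjusted p = 0.15, in parental and -0.21, adjusted p = 0.11, in resistant cells). The parental value rested on the first indisulam library: it was -0.01 without it and 0.32, past the threshold, without the second. The resistant value was -0.32, past the threshold, without the second resistant untreated library (adjusted p = 0.034). Off the drug, the difference of the lines was not called without the second resistant untreated library (-0.19) or with the DESeq2 Wald test (-0.30).

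IFNLR1 (ENSG00000185436, chromosome 1, 24154168 to 24187959, minus strand), the chain that gives type III interferons their specificity, was higher in the resistant line both off and on the drug. The parental libraries measured 4.687 and 4.576 CPM untreated and 4.802 and 4.816 with the drug. The resistant libraries measured 7.682 and 7.915 CPM untreated and 11.09 and 10.64 with the drug. The resistant and parental libraries did not overlap, and within the resistant line the drug libraries were the higher ones. The line difference was 0.75 log2 units off the drug (1.68-fold, SE 0.067, adjusted p = 8.9e-10) and 1.17 on it (2.26-fold, SE 0.066, adjusted p = 1.4e-13). Indisulam raised IFNLR1 in resistant cells by 0.48 (SE 0.062, adjusted p = 8.5e-07), whereas the parental change was 0.05 (adjusted p = 0.54, 95% interval -0.09 to 0.20).

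**Figure D1:**
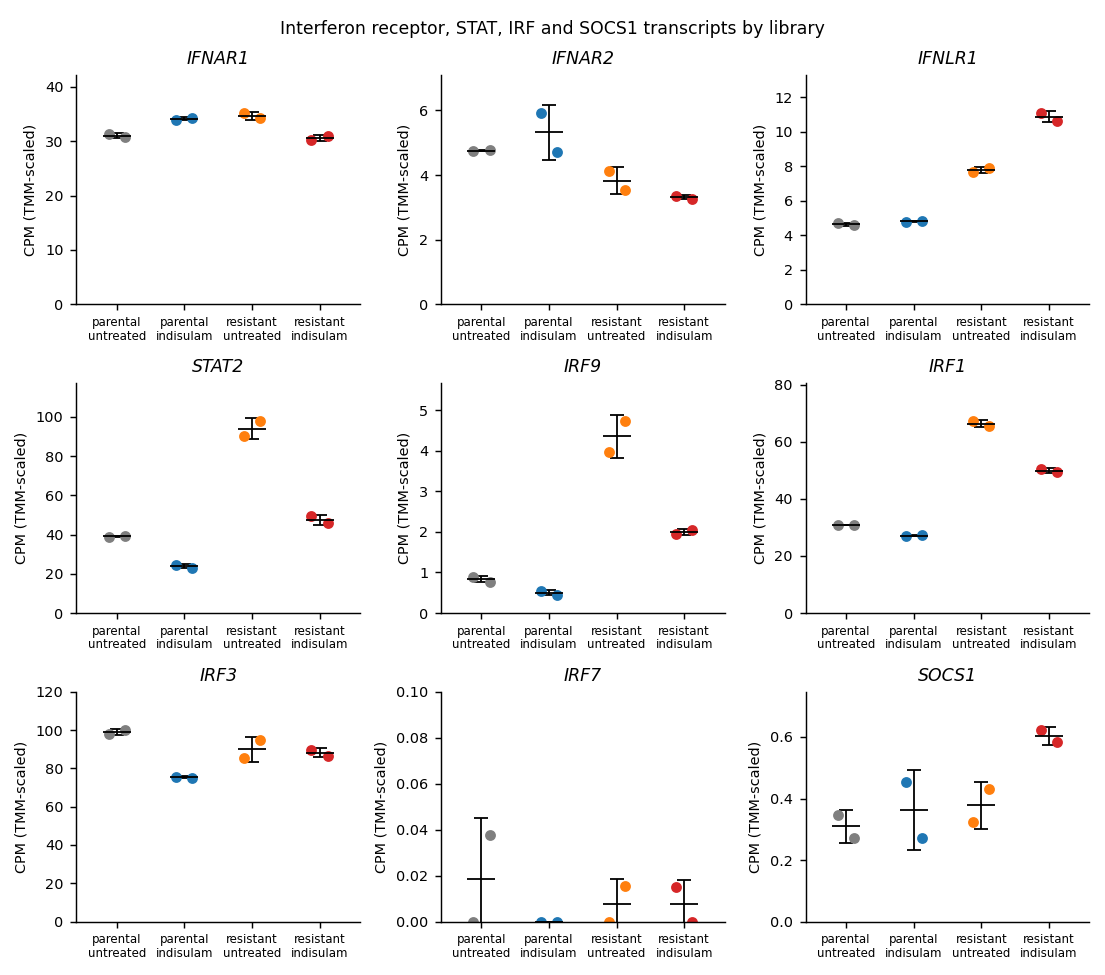
TMM-scaled CPM of the 9 genes in each library, with the 4 groups on the x axis (grey parental untreated, blue parental indisulam, orange resistant untreated, red resistant indisulam). Points are libraries, long bars the means and capped bars the SD (n = 2), and the IRF7 axis ends at 0.1 CPM and cuts SD bars at 0. STAT2, IRF9 and IRF1 peak in resistant untreated cells, and IFNLR1 and SOCS1 peak in resistant indisulam cells.

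STAT2 (ENSG00000170581, chromosome 12, 56341597 to 56360203, minus strand) and IRF9, the STAT and DNA-binding subunits of the ISRE-binding complex, had the same order of the 4 groups. In the parental line STAT2 measured 38.87 and 39.24 CPM untreated and 24.46 and 23.18 CPM with the drug. In the resistant line it measured 90.14 and 97.67 CPM untreated and 49.24 and 45.71 CPM with the drug. No 2 groups overlapped, and resistant cells on the drug (47.5 ± 2.50 CPM, SD, n = 2) were nearer to parental untreated cells (39.1 ± 0.263) than to resistant untreated ones (93.9 ± 5.33). Indisulam lowered STAT2 in parental cells by 1.64-fold (log2 change -0.71, SE 0.046, adjusted p = 2.6e-10) and in resistant cells by 1.98-fold (log2 change -0.99, SE 0.042, adjusted p = 3.5e-13). In resistant cells, 1.74% of the genes tested had a lower log2 change. Off the drug STAT2 was 2.40-fold higher in the resistant line (log2 difference 1.26, SE 0.042, adjusted p = 1.4e-15).

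IRF9 (ENSG00000213928, chromosome 14, 24161234 to 24168043, plus strand) had few reads, 35 to 307 per library. Its level in parental cells was 0.886 and 0.777 CPM untreated and 0.547 and 0.452 CPM with the drug. Its level in resistant cells was 3.983 and 4.727 CPM untreated and 1.943 and 2.048 CPM with the drug. Resistant untreated cells were highest and parental indisulam cells lowest, as for STAT2, again with no overlap. IRF9 was 5.21-fold higher in resistant than in parental untreated cells (log2 difference 2.38, SE 0.129, adjusted p = 7.5e-14), the largest such difference among the 8 genes tested, and 2.65% of the genes tested had a higher one. Indisulam lowered it in parental cells (log2 change -0.74, SE 0.193, adjusted p = 0.0022) and in resistant cells (log2 change -1.12, SE 0.117, adjusted p = 3e-08). Its level can be understated by the counting, since 1513 of the 1626 bases of its canonical transcript (93.1%) are shared on the same strand with the read-through gene ENSG00000259529, and the tables set reads that fit more than 1 gene aside as ambiguous. That gene had 220 reads in all libraries together, with 72 and 64 in parental cells without and with the drug and 28 and 56 in resistant cells, and thus did not follow IRF9. Of the 6471 merged exon bases of IRF9, 1544 (23.9%) are shared with that gene, so most countable bases lie outside the canonical transcript. Whether the fold changes above are those of the canonical transcript was not tested.

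IRF1 (ENSG00000125347, chromosome 5, 132440440 to 132508719, minus strand), a transcription factor of antigen presentation and interferon gamma targets, was also highest in resistant untreated cells. Parental cells gave 30.71 and 30.79 CPM untreated and 26.89 and 27.28 CPM with the drug. Resistant cells gave 67.12 and 65.61 CPM untreated and 50.43 and 49.29 CPM with the drug. The groups did not overlap, and both resistant groups stood well above both parental ones, as for IRF9. Off the drug the difference of the lines was 1.11 log2 units (2.16-fold, SE 0.034, adjusted p = 9.8e-19), and on the drug 0.88 (SE 0.036, adjusted p = 2.7e-16). Indisulam lowered IRF1 slightly in parental cells (log2 change -0.18, SE 0.036, adjusted p = 0.00014) and more in resistant cells (log2 change -0.41, SE 0.033, adjusted p = 3.1e-10). The antisense gene IRF1-AS1 took 2.71% of the pair's reads.

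IRF3 (ENSG00000126456, chromosome 19, 49659569 to 49665875, minus strand), the factor that stands ready in resting cells, had a pattern of its own. Parental libraries had 98.11 and 100.1 CPM untreated and 75.73 and 75.0 CPM with the drug. Resistant libraries had 85.47 and 94.63 CPM untreated and 89.84 and 86.5 CPM with the drug. The parental drug libraries were lower than all others, and the resistant groups overlapped. Indisulam lowered IRF3 in parental cells (log2 change -0.40, SE 0.038, adjusted p = 5e-08). In resistant cells the change was -0.03 (adjusted p = 0.54, 95% interval -0.11 to 0.05), and it was -0.10, past the threshold, without the first resistant untreated library and 0.03 without the second. Off the drug IRF3 was lower in the resistant line by a small amount (-0.14, SE 0.038, adjusted p = 0.0037), which was not called without the first resistant untreated library (-0.06). The neighbour BCL2L12 overlaps 19.3% of the IRF3 exon bases on the other strand and took 34.58% of the pair's reads. The strand setting of the counting is not given in the sources used here, so exchange of reads between these genes was not tested.

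IRF7 (ENSG00000185507, chromosome 11, 612553 to 615983, minus strand), in many cell types an interferon-induced gene, was at or near 0 reads. It had 0 and 4 reads in the untreated parental libraries and 0 and 0 in the treated ones. The untreated resistant libraries had 0 and 1 read and the treated ones 1 and 0. A count of 0 allows up to 3 reads, which is 0.0389 and 0.0373 CPM in the parental indisulam libraries (counting error only). The gene failed the filter on low counts and was not tested. Its neighbour PHRF1 had 6390 to 9821 reads per library, so the region was not empty of reads. Whether reads of IRF7 itself were lost in the counting was not tested.

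SOCS1 (ENSG00000185338, chromosome 16, 11254417 to 11256204, minus strand), the inhibitor of the receptor kinases, was scarce and was highest in resistant cells on the drug. Parental cells had 38 and 29 reads (0.347 and 0.271 CPM) untreated and 34 and 21 reads (0.454 and 0.271 CPM) with the drug. Resistant cells had 24 and 28 reads (0.324 and 0.431 CPM) untreated and 42 and 56 reads (0.623 and 0.582 CPM) with the drug. The first 3 groups overlapped, and the resistant indisulam libraries were above all of them. Indisulam raised SOCS1 in resistant cells by 0.68 (SE 0.257, adjusted p = 0.031), and the parental change was 0.22 (adjusted p = 0.52, 95% interval -0.35 to 0.79). The resistant change was not called with the DESeq2 Wald test (0.67), at an adjusted p under 0.01, or without the first resistant untreated (0.47) or either resistant indisulam library (0.64 and 0.73). With 21 to 56 reads per library, the intervals of SOCS1 were the widest of the 8 genes tested in the drug comparisons. The gene RMI2 spans the SOCS1 region on the other strand with 0 shared exon bases, and had 7950 reads in all libraries against 272 of SOCS1. As the strand setting is not given, stray RMI2 reads in the SOCS1 counts were not tested for.

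Levels were compared between genes as RPKM, which is CPM divided by the length in kilobases, with merged exons as length. IRF3 ranked first in every group (26.1 RPKM in parental and 23.7 in resistant cells off the drug), followed by STAT2 (4.195 and 10.09) and IRF1 (2.51 and 5.41). IFNAR1 (1.98 and 2.21) and IFNLR1 (0.938 and 1.58) came next, and in resistant indisulam cells IFNLR1 (2.2) ranked above IFNAR1 (1.95). IFNAR2, SOCS1 and IRF9 took the lower ranks, and IRF9 ranked above the other two in resistant untreated cells (0.673 RPKM). IRF7 was last everywhere. Libraries of neighbours in rank did not overlap in any group. With the canonical transcript as length, 4, 7, 2 and 7 genes changed place in the 4 groups, IRF1 ranked above STAT2 in both drug groups, and IRF9 and SOCS1 overlapped in parental indisulam cells. The place of IFNAR2 can likewise be lowered by the counting, since 49.1% of its canonical transcript is shared with the read-through gene IFNAR2-IL10RB, which had 0 reads.

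**Figure D2:**
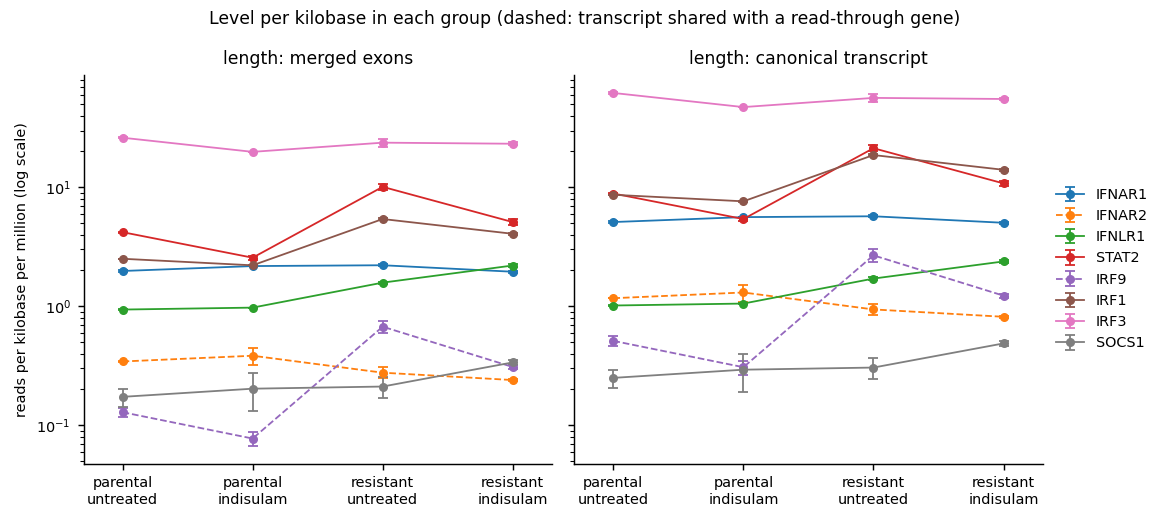
Mean RPKM (CPM per kilobase) on a log axis in the 4 groups, for merged exons (left) and the canonical transcript (right), with SD bars (n = 2). Dashed lines mark IRF9 and IFNAR2, whose transcripts are shared with a read-through gene, and IRF7 is not drawn. IRF3 leads in every group, and IRF9 ranks above IFNAR2 and SOCS1 in resistant untreated cells.

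How many of the genes responded was counted next, against the share of all genes called. In parental cells, indisulam changed 5 of the 8 genes tested, 1 higher and 4 lower, where 58.2% of the 16661 genes tested were called (31.6% higher and 26.6% lower). STAT2, IRF9, IRF1 and IRF3 fell and IFNAR1 rose. Called genes split 54.3% higher, or 42.0% when libraries were scaled by totals alone. In resistant cells, indisulam changed 6 of 8, 2 higher and 4 lower, against 50.7% of all genes (24.9% higher and 25.8% lower), and 49.1% of those calls were higher (59.7% by totals alone). There STAT2, IRF9, IRF1 and IFNAR1 fell, and IFNLR1 and SOCS1 rose. With 8 genes and such shares, the counts themselves are not read as a result about these genes. Tested against a minimum effect of 0.5 log2 units, STAT2 was called in parental cells, where 6.25% of all genes passed, and STAT2 and IRF9 in resistant cells, where 5.28% did. The median log2 change of the 8 genes was -0.06 in parental and -0.20 in resistant cells, beside 0.01 over all genes in each.

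Against parental cells, resistant cells off the drug differed in 7 of 8 genes, 5 higher (IRF9, STAT2, IRF1, IFNLR1, IFNAR1) and 2 lower (IFNAR2, IRF3), where 60.1% of all genes were called (30.3% higher and 29.9% lower). On the drug all 8 differed, 6 higher and 2 lower (IFNAR1, IFNAR2), where 69.5% of all genes were called (34.6% higher and 34.9% lower). The SOCS1 difference on the drug (0.73, adjusted p = 0.014) was not called with the DESeq2 Wald test (0.74), without the second parental indisulam library (0.41) or without the first resistant indisulam library (0.69). The IFNAR1 difference on the drug (-0.16, adjusted p = 0.00067) was not called with library totals alone (-0.07) or with the filter on mean CPM (-0.08). The median log2 difference was 0.51 off and 0.80 on the drug, beside -0.02 and 0.00 over all genes. Against the minimum effect, IRF9, STAT2, IRF1 and IFNLR1 were called higher both off the drug, where 15.5% of all genes passed, and on it, where 21.1% did. These comparisons share libraries with those of the drug, so they are given side by side and not as separate evidence. Resistant cells on the drug were also set against parental untreated cells. IRF9 (1.27, SE 0.143, adjusted p = 3.7e-08), IFNLR1 (1.23), SOCS1 (0.95), IRF1 (0.70) and STAT2 (0.28, SE 0.043, adjusted p = 1.2e-05) were higher in the resistant cells, IFNAR2 (-0.52) and IRF3 (-0.17) were lower, and IFNAR1 gave no call (-0.02, adjusted p = 0.66). Thus 7 of 8 differed, where 64.8% of all genes did (32.2% higher and 32.6% lower), and 3 of the 8 (IRF9, IFNLR1 and IRF1) passed the minimum effect, beside 17.9% of all genes.

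**Figure D3:**
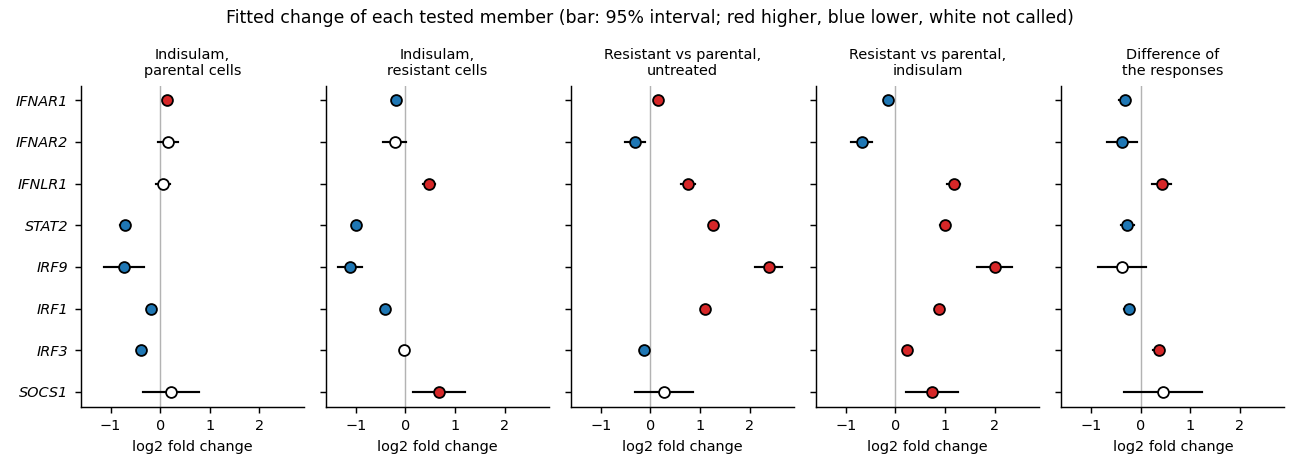
Fitted log2 fold changes of the 8 genes tested in each comparison (x axes), with 95% intervals as bars. Red points were called higher, blue points lower and white points not called at an adjusted p of 0.05. IRF9, STAT2, IRF1 and IFNLR1 lie to the right in both comparisons of the lines, and STAT2, IRF9 and IRF1 lie to the left in both drug comparisons.

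The response of parental cells was 18 h of drug against cells never exposed. That of resistant cells was drug without a break against a holiday of 1 week. The difference of the log2 changes, resistant minus parental, was tested, though line and exposure cannot be told apart in it. It was called in 6 of 8 genes, 2 higher and 4 lower, where 50.1% of all genes were called (22.7% higher and 27.5% lower) and 45.2% of those calls were positive (65.8% by totals alone). STAT2 (-0.27, SE 0.063, adjusted p = 0.0013), IRF1 (-0.23, SE 0.049, adjusted p = 0.00042), IFNAR1 (-0.32) and IFNAR2 (-0.37, SE 0.145, adjusted p = 0.037) had the lower value in resistant cells. IFNLR1 (0.42, SE 0.095, adjusted p = 0.00073) and IRF3 (0.37, SE 0.054, adjusted p = 1.8e-05) went the other way. For IRF9 the difference was -0.38 with a 95% interval of -0.86 to 0.10, and for SOCS1 it was 0.46 with one of -0.33 to 1.24. Scaling by totals alone moved the median of all genes from 0.01 to 0.13, and STAT2 (-0.16), IRF1 (-0.12) and IFNAR2 (-0.26) were then not called, which left 3 genes. Relative to the median of all genes, the values were -0.28 for STAT2, -0.24 for IRF1 and -0.38 for IFNAR2 under either scaling. The IFNAR2 call was also lost with the DESeq2 Wald test (-0.38, adjusted p = 0.1), with the filter on mean CPM (-0.29, adjusted p = 0.11) and on leaving out any of 6 of the 8 libraries, and the value was -0.21 without the first parental indisulam library. None of the 8 passed the minimum effect in this comparison, where 5.45% of all genes did.

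The partners of the receptors and their kinases moved in mixed directions. Of 6 such genes, indisulam raised 4 and lowered 2 in parental cells, where 58.2% of all genes were called, and raised 3 and lowered 1 in resistant cells, where 50.7% were. The medians were 0.20 in both lines, beside 0.01 over all genes in each. JAK1 rose in both lines (0.31, adjusted p = 3.4e-09, and 0.28, adjusted p = 1.7e-08), as did IFNGR1, a chain of the interferon gamma receptor (0.35 and 0.22). IFNGR2, the other chain, was 2.28-fold higher in resistant untreated cells (41.6 ± 2.36 against 18.3 ± 0.0175 CPM, SD, n = 2, adjusted p = 1.3e-17). TYK2 was lower there (log2 difference -0.75, adjusted p = 7.4e-05), as was JAK2 (-0.54, adjusted p = 9.6e-10). IL10RB, the partner of IFNLR1, had 79 reads in all, and 89.2% of its transcript is shared with IFNAR2-IL10RB, so its level cannot be judged from these counts. Its fitted log2 change with indisulam in parental cells was -2.29 (SE 0.655, adjusted p = 0.0045).

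Among 16 negative regulators of the pathway, 3 were higher and 9 lower in the resistant line off the drug, where 30.3% of all genes were called higher and 29.9% lower. USP18, which binds IFNAR2, stood apart from SOCS1: its parental level was 1.124 and 1.160 CPM untreated and 1.000 and 0.994 CPM with the drug, and its resistant level was 27.15 and 27.72 CPM untreated and 4.939 and 5.106 CPM with the drug. It was 24.0-fold higher in resistant than in parental cells off the drug (log2 difference 4.58, SE 0.070, adjusted p = 1.3e-24) and was lowered by the drug in resistant cells (log2 change -2.45, SE 0.058, adjusted p = 3.7e-20). USP18 has a near copy, USP41, so its counts are uncertain. Of 10 other STATs and IRFs, 7 were tested, and off the drug 5 were higher and 1 lower in the resistant line. The share of all genes called there was 60.1%. IRF5, which acts downstream of endosomal nucleic acid sensors, was 1.07 log2 units higher (adjusted p = 5.7e-11).

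The ligands were almost silent. Of 21 interferon genes, 14 had 0 reads and only IFNE, an interferon of epithelia, passed the filter. IFNE was higher in parental untreated (2.15 ± 0.0822 CPM) than in parental indisulam cells (1.06 ± 0.0593, log2 change -1.02, adjusted p = 8.2e-07) or resistant untreated cells (0.688 ± 0.0944, log2 difference -1.65, adjusted p = 1.4e-09). IFNB1, singled out after its values were seen, had 0 and 0 reads in untreated and 0 and 1 in treated parental libraries, against 9 and 5 in untreated and 2 and 5 in treated resistant ones. IFNL1, a ligand of IFNLR1 singled out in the same way, had 2 and 1, 0 and 0, 12 and 8, and 5 and 8 reads in the same order. Both were thus read most often in resistant untreated libraries, and neither passed the filter. With no filter, both were called higher in resistant than in parental untreated cells (adjusted p = 3e-05 for IFNB1 and 6.9e-05 for IFNL1). Since these same counts were used to single out the 2 genes, the p-values are not separate evidence.

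Of 9 kinases and adaptors upstream of the interferon genes, 3 were higher and 3 lower in resistant than in parental untreated cells, a share near the 60.1% called among all genes. MYD88, the adaptor of Toll-like receptors (log2 difference 1.15, adjusted p = 1.8e-18), and STING1, the adaptor of cytosolic DNA sensing (1.10, adjusted p = 2.3e-17), were both higher in resistant than in parental cells off the drug. In resistant cells kept on the drug, MYD88 was lower (-0.55, adjusted p = 7.8e-12) and STING1 higher (0.57, adjusted p = 6.8e-12) than after the drug holiday. TBK1, the kinase that phosphorylates IRF3, rose in parental cells (0.55, adjusted p = 1e-12) and by less in resistant cells (0.19, adjusted p = 3.2e-05).

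The genes that these factors switch on were counted last. Of 27 type I interferon-stimulated genes, all were called higher in resistant untreated than in parental untreated cells, where 30.3% of all genes were, with a median log2 difference of 3.95 beside -0.02 over all genes. Indisulam lowered all 27 in resistant cells (median -2.07), where 25.8% of all genes were lowered. In parental cells it lowered 15 and raised 2 (median -0.37), where 26.6% of all genes were lowered and 31.6% raised. IFI44 fell by 1.28 on the log2 scale in parental cells (adjusted p = 5.3e-11), and IFI6, a mitochondrial protein induced by type I interferon, fell by 4.83 in resistant cells (adjusted p = 1.5e-25). On the drug, 26 of the 27 were still higher in the resistant line, where 34.6% of all genes were. In the difference of responses 23 were called lower and 0 higher in the same edgeR test. Over all genes, 27.5% were called lower and 22.7% higher in that comparison. Some of the 27 were near 0 in parental untreated libraries: MX2 had 3 and 0 reads, CMPK2 1 and 3, and EPSTI1 2 and 1. For such genes a fall in parental cells could hardly be measured, which limits a comparison of the responses. Others, such as OAS3 (39.8 CPM in parental untreated cells), were not near 0. Of 15 interferon gamma and IRF1 targets tested, 13 were higher and 1 lower in the resistant line off the drug (median 1.06). Over all genes, 30.3% were called higher and 29.9% lower there. Indisulam lowered 12 of the 15 in resistant cells, where 25.8% of all genes were lowered. In parental cells it raised 6 and lowered 2, a share near the 58.2% called among all genes. The peptide transporter TAP1 (-0.84, adjusted p = 1.1e-16) and HLA-E (-0.70, adjusted p = 5.9e-16) fell in resistant cells and rose in parental cells (0.17, adjusted p = 7.1e-05, and 0.22, adjusted p = 2.3e-07), while IRF1 fell in both. GBP4, an interferon gamma-induced GTPase, was higher in resistant than in parental cells off the drug (log2 difference 4.63, adjusted p = 1.4e-15). It had 12 and 15 reads in parental and 225 and 208 in resistant untreated libraries, so the size of that difference is uncertain.

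**Figure D4:**
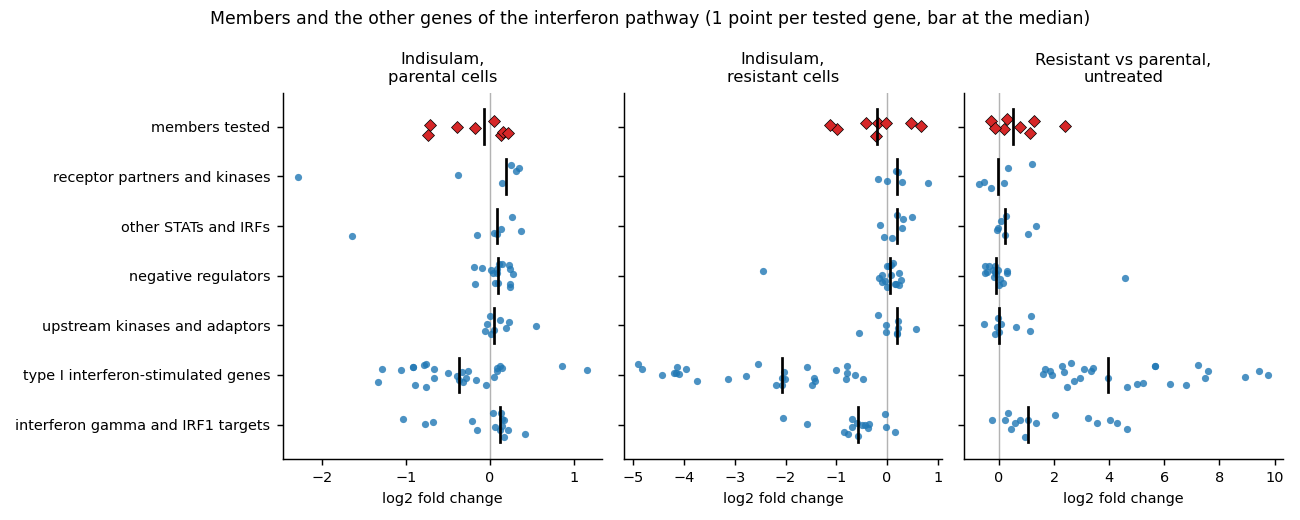
Log2 fold changes (x axes, with scales that differ between panels) of the 8 tested genes (red diamonds) and of the other lists of the pathway (blue points, 1 per tested gene), with the median of each list as a black bar. The interferon-stimulated genes lie to the right of 0 in resistant against parental untreated cells and to the left of 0 with indisulam in resistant cells.

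The genes most like each of the 8 tested genes were sought by Pearson's r of log2(CPM + 1) over the 8 libraries, among 10829 other protein-coding genes (10830 for SOCS1). With 4 groups of 2, such values mostly describe the 4 group levels, and so many genes reach high values. The closest gene was NUP210 for STAT2 (r = 0.9972), DGKG for IRF9 (0.9975) and MYL9 for IFNLR1 (0.9996). It was MZF1 for IRF3 (0.9948), TSR2 for IFNAR1 (0.9913), UBTD1 for SOCS1 (0.9806) and FOXC1 for IFNAR2 (0.9730). SAMD9 (0.9964) and BTN3A1 (0.9961) followed for IRF9. DDX60L (0.9989) and PIK3C2B (0.9989) were among the closest for IRF1. For STAT2 they were MELTF (0.9942) and SLC2A4RG (0.9939), and for IFNLR1 CD24 (0.9988) and MAPKBP1 (0.9983). IRF3 was followed by SNRNP48 (0.9912) and AP1G2 (0.9900), IFNAR1 by GPAT3 (0.9912) and SEPTIN2 (0.9893), SOCS1 by FAM110C (0.9805) and FBXL19 (0.9747), and IFNAR2 by NUDT19 (0.9671) and LRRC8A (0.9618).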

How the data were processed

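RNA of the 8 libraries was sequenced by the authors from stranded, polyadenylated libraries, trimmed with SeqPurge and aligned with HISAT2 2.2.1 to GRCh38. HTSeq and Picard are named in the submitters' processing notes. The deposited tables hold raw read counts for 60675 Ensembl genes and 9 lines of reads not assigned to a gene. Reads marked as duplicates (14.07% to 18.43% of all reads) and ambiguous reads (5.61% to 7.33%) were among the latter and stayed out of library sizes and tests. The annotation release and strand setting of the counting are not given in the sources used here. Symbols and positions came from GENCODE 44 (60419 identifiers matched). The floors for counts of 0 cover counting error only, since no molecular identifiers were used and reads of 1 molecule can repeat, whereas the 95% intervals of log2 changes come from the fit and include the spread between libraries.

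Tests on the counts used edgeR 4.0.16 (R 4.3.3): filterByExpr (16661 genes), TMM scaling and a robust quasi-likelihood model of the 4 group means with 4 residual degrees of freedom, with Benjamini-Hochberg adjustment over all genes tested and calls at an adjusted p under 0.05. The standard error is the log2 change divided by the square root of F. The genes and lists were chosen with earlier results of these data known. From each list, up to 3 called genes per comparison with the largest change and a mean CPM of at least 1 could be named, beside the partners of the 9 genes (IL10RB, JAK1, TYK2, IFNGR1, IFNGR2, USP18). The alternatives were the Wald test of DESeq2 1.42.0, scaling by its size factors or by library totals alone, no filter or a mean CPM of at least 1, a fit of the compared groups only, a minimum effect of 0.5 log2 units, a threshold of 0.01, the replicate number as block, and leaving out each library. The canonical transcript length and the alternatives for genes and counts of the lists were added after seeing the data. The code was tested on simulated data. Python 3.11.15 with matplotlib 3.10.9 made the figures. A marker gene and a gene alike in pattern to IRF1 are not reported here.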

Additional observations from a re-analysis of the deposited data

Results flagged for a closer look

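The genes below had log2 responses to indisulam that differed between the lines by the edgeR test of the difference itself (resistant minus parental). The exposures of the lines differed too, so line and exposure cannot be told apart here. Of the receptor genes and their partners, IFNAR1 (-0.32), IFNAR2 (-0.37) and IFNGR2 (-0.43) had lower values in resistant cells. The IFNAR2 difference was lost under several alternatives and was -0.21 without the first parental indisulam library. IFNLR1 (0.42), TYK2 (0.39) and IL10RB (3.09, SE 0.809, from 79 reads in all) had higher values in resistant cells. The IL10RB value rested on 1 and 3 reads in the parental indisulam libraries, so it cannot be judged. Of the transcription factors, STAT2 (-0.27) and IRF1 (-0.23) had lower values in resistant cells, and IRF3 (0.37) and IRF5 (0.45) had higher ones. Among the upstream genes and the ligand, MYD88 (-0.49) and TBK1 (-0.36) had lower and STING1 (0.57) and IFNE (1.36) higher values in resistant cells. Among the feedback and target genes, USP18 (-2.25), IFI6 (-4.52), TAP1 (-1.01) and HLA-E (-0.92) all had lower values in resistant cells. USP18 and IFI6 started from low levels in parental untreated cells (1.14 and 0.563 CPM), against 27.4 and 62.6 CPM in resistant untreated cells.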

How the results depend on the processing

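Over 802 alternative values of the log2 changes of the 8 tested genes, 737 kept direction and call, 54 lost the call, 3 gained it and 8 changed sign. The sign changes were all in changes that had not been called. Leaving out 1 library gave -0.01 to 0.32 for IFNAR2 and -0.19 to 0.55 for SOCS1 in parental cells, by the first and second parental indisulam library, and -0.104 to 0.033 for IRF3 in resistant cells, by the first and second resistant untreated library. IFNLR1 in parental cells was -0.012 with library totals alone and -0.002 with the filter on mean CPM, IRF3 in resistant cells was 0.018 with totals, and IFNAR1 between resistant indisulam and parental untreated cells was 0.002 with totals and 0.003 with that filter. The minimum effect of 0.5 log2 units left 1 of the 8 genes called for indisulam in parental cells (1042 of all genes), 2 in resistant cells (879), 4 between the lines off the drug (2582) and 4 on it (3509), 0 in the difference of responses (908, where the edgeR test without a minimum effect called 6) and 3 between resistant indisulam and parental untreated cells (2978). With library totals alone, 3 of the 8 were called in the difference of responses, and the summed CPM of the 8 genes was 213.1 in parental untreated, 165.7 in parental indisulam and 239.2 in resistant indisulam cells (210.4, 171.4 and 232.9 with TMM). The replicate block changed none of the 48 calls, for example STAT2 in parental cells (-0.71, SE 0.050, adjusted p = 3.6e-08). Numbers did not pair the libraries, since deviations of same-numbered libraries correlated at -0.18 to 0.14. SOCS1 failed the filter on mean CPM, and a fit of only the groups compared could not be made for the difference of responses. Of 870 alternative values of the genes named from the lists, 831 kept their call, 39 lost it and 0 changed sign. With 2 libraries per group and fewer than 60 SOCS1 reads per library, small changes of scarce genes were not detectable.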
